A study of Rattus norvegicus with 12 samples.

Results

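Wounds of diabetic rats dressed with dried snail-mucus gel were compared with wounds dressed with the glycosaminoglycan purified from that gel, using RNA sequencing of the wound tissue. The comparison took 6 of the 12 libraries of the study, 3 with d-SMG (the lyophilized mucus gel of *A. fulica*) and 3 with s-GAG (the sulfated, heparin-like glycosaminoglycan recovered from it after protease digestion), and each d-SMG library was set against the s-GAG library of the same day. All 6 came from skin of male SD rats made diabetic with STZ (streptozotocin) and given a full-thickness punch wound on the back, and were taken on day 3, 7, and 14. The gel was applied with saline and the glycosaminoglycan as a solution. The saline control and alginate (Alg) libraries entered no fit. Each treatment had 1 library on each day, and whether a library pooled several animals is not given in the sources used here. Therefore p-values were available only for a difference shared by the 3 days, and the differences on a single day have no replicate check. Streptozotocin kills insulin-producing cells, and rats made diabetic with it heal more slowly, without all features of a human diabetic ulcer.

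A full-thickness wound first fills with neutrophils and macrophages, then with fibroblasts and new vessels that lay down collagen, while keratinocytes migrate from the wound edge and from hair follicles to close the surface. Heparin-like glycosaminoglycans are long sulfated sugar chains, which bind chemokines and growth factors and can hold them in the tissue. The mucus gel carries the same chains together with proteins, calcium, and small molecules. The comparison therefore asks where the whole gel and its glycosaminoglycan differed in the tissue they left.

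The 6 libraries held 13748887 to 38302461 reads on genes, and 14986 of 25620 genes had enough reads to be tested. Ratios are of d-SMG to s-GAG on the log2 scale after TMM scaling, which sets the bulk of genes to equal levels, and levels are CPM, the reads of a gene for each 1000000 reads of the library, on that scale. Of the 6, a pair of libraries stood apart. In the d-SMG library of day 3, keratinocyte and hair genes were close to 0 and skeletal muscle genes took 19.7% of the reads, the highest share of the 12 libraries. Hair follicle reads were also scarce, at 0.00363% and 0.00902%, in the control libraries of day 3 and 7. In the s-GAG library of day 14, short genes stood 1.84 above long genes on the log2 scale (medians of the shortest and longest genes, with genes cut by length into 5 equal groups), whereas this difference lay between −0.38 and 0.55 in the other 11 libraries. Day-14 ratios followed gene length accordingly, with a median of −0.92 in the shortest group and 0.77 in the longest (n = 14093 genes). Day-14 medians of gene lists are therefore also given with a correction for length where it turned their sign or moved them by more than about 0.4, and values of single genes are uncorrected unless stated. Counts over gene lists are of the members that passed the read filter. In such bulk tissue, fewer cells of a type and less RNA per cell cannot be told apart.

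No gene passed the test of d-SMG against s-GAG over the 3 days (edgeR quasi-likelihood test paired by day, 0 of 14986 genes at an adjusted p under 0.05, 0%). Without adjustment, 162 genes were higher and 276 lower in d-SMG at p under 0.05, together 2.92% of the genes, and the smallest adjusted p was 1. DESeq2 called 9 genes higher and 68 lower, among them 16 of the 20 genes with the smallest p-values in edgeR (10 in each direction), which included *Cxcl6*, *Hmox1*, *Msr1*, *Spp1*, *Myh7*, *Krt2*, and *Chac1*. Without day 3, the paired test called 90 genes higher and 179 lower, with 1 residual degree of freedom.

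Within single days the libraries were far apart. A gene was counted when the 2 libraries differed at least 4-fold and the higher held at least 30 reads. On day 3, 524 genes were higher in d-SMG (3.5%) and 1248 lower (8.33%). On day 7, 301 were higher (2.01%) and 360 lower (2.4%). On day 14, 853 were higher (5.69%) and 497 lower (3.32%). Scaling by library size alone, which moved all ratios by −0.53, 0.20, and 0.61 on day 3, 7, and 14, respectively, gave 272 genes higher and 1637 lower for day 3, 429 and 288 for day 7, and 1841 and 239 for day 14. The correction for gene length gave 610 higher and 414 lower on day 14. Ratios above 0 by any amount, after TMM scaling, were found for 6893, 7632, and 7759 of the 14986 genes on day 3, 7, and 14, respectively. These numbers and the shares past 4-fold are the background for the counts over gene lists below.

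The direction of a gene on day 3 often turned by day 7. Of the 296 genes past 4-fold on both days (16.7% of those of day 3 and 44.8% of those of day 7), 174 were higher in d-SMG on day 3 and lower on day 7, 32 turned the other way, and 90 kept their direction. Day 7 and day 14 shared 195 genes (29.5% and 14.4% of their lists), of which 184 had the same direction, 53 higher and 131 lower. Only 26 genes passed 4-fold in the same direction on all 3 days, 2 of them higher in d-SMG (0.0133%) and 24 lower (0.16%). With the length correction there were 3 and 23, and 20 of the 26 genes were kept.

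The 2 genes higher in d-SMG on all 3 days were *Cxcl6* and *Pram1*. *Cxcl6* encodes a chemokine that attracts neutrophils through CXCR2. On day 3, 7, and 14, respectively, it measured 7.66, 26.5, and 6.16 CPM with d-SMG and 0.961, 2.14, and 0.785 with s-GAG, with all d-SMG libraries above all s-GAG libraries and a difference over the days of 3.21 ± 0.48 (SE) on the log2 scale (edgeR, adjusted p = 1). *Pram1*, an adaptor protein of myeloid cells, measured 6.805, 5.57, and 2.897 CPM with d-SMG and 1.58, 1.32, and 0.589 with s-GAG, and the 2 groups did not overlap either. As the 2 genes were chosen for a 4-fold difference on every day, their lack of overlap is not independent evidence. These libraries held few *Pram1* reads, at most 116, and with a minimum of 100 reads a day neither gene remained on the list.

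The genes higher in d-SMG with the smallest p-values were largely genes of macrophages and other leukocytes, though none passed adjustment (adjusted p = 1 for each in edgeR). *Hmox1*, heme oxygenase, which degrades heme and rises under oxidative stress, measured 52.7, 165, and 27.4 CPM with d-SMG and 17.1, 21.9, and 5.495 with s-GAG. *Msr1*, a scavenger receptor of macrophages, measured 65.6, 111, and 15.8 CPM with d-SMG and 21.4, 13.4, and 4.06 with s-GAG. *Spp1*, osteopontin, a matrix protein and cytokine made by macrophages among other cells, measured 1177, 943, and 93.4 CPM with d-SMG and 234, 53.2, and 31.6 with s-GAG. For all these genes each d-SMG library was above the s-GAG library of its day, by 1.62, 2.91, and 2.31 (*Hmox1*), 1.62, 3.04, and 1.95 (*Msr1*), and 2.33, 4.15, and 1.56 (*Spp1*) on the log2 scale. The length correction moved the day-14 ratios to 2.66, 1.24, and 2.21, in the same order. *Ptx3*, a secreted pattern-recognition protein of the pentraxin family, differed by 3.68, 2.56, and 1.35. *Lilrb2*, an inhibitory leukocyte receptor, differed by 1.69, 2.63, and 2.63, and *Il21r*, the receptor of interleukin-21, by 1.51, 2.29, and 1.39. *Apobec1*, an RNA-editing cytidine deaminase, had a difference over the days of 1.78 ± 0.45 (SE).

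The genes lower in d-SMG on all 3 days were mainly hair and skin-barrier genes and genes of slow muscle fibers. Of the 24, *Krtap5-1*, *Krtap12-2*, *Krtap16-5*, *Krt36*, *Tchhl1*, *Vsig8*, *Padi1*, *Mt4*, *Krt2*, and *Lce1m* belong to hair shafts, root sheaths, or cornified epidermis. *Tchhl1*, a trichohyalin-like protein, measured 0.464, 30.9, and 94.01 CPM with d-SMG and 259, 194, and 753 with s-GAG. *Krt2*, a keratin of the upper epidermis, measured 1.24, 1.01, and 3.64 CPM with d-SMG and 8.199, 6.89, and 20.02 with s-GAG, with a difference over the days of −2.65 ± 0.45 (SE). For 1000 reads of the basal keratin *Krt5* in the same library, there were 163, 0.458, and 0.852 reads of *Krt2* with d-SMG. With s-GAG there were 3.09, 1.78, and 4.40. This ratio was therefore higher in d-SMG on day 3, when *Krt2* had 16 reads, and lower on day 7 and 14. *Lce1m*, a late cornified envelope protein, measured 0, 0.144, and 0.0616 CPM with d-SMG and 1.75, 1.62, and 13.5 with s-GAG. In all 3 genes the CPM with d-SMG lay below the CPM with s-GAG with no overlap. As the genes were chosen for a 4-fold difference on every day, this separation is not independent evidence. Most of the hair and barrier genes were at or near 0 in the d-SMG library of day 3. *Chga*, chromogranin A, known from neuroendocrine secretory granules, measured 0.155, 0.912, and 18.1 CPM with d-SMG and 40.3, 13.3, and 85.6 with s-GAG, and its 2 groups overlapped between days. *Tm4sf4*, a tetraspan membrane protein, differed by −4.75, −3.16, and −3.09. *Gdpd2*, a glycerophosphodiester phosphodiesterase, had 0 reads with d-SMG on day 3, at least 19.5-fold lower, and differed by −2.05 and −2.08 on day 7 and 14. The others were *Myh7*, *Myh6*, *Myl2*, *Myl3*, *Tnnt1*, and 6 genes with provisional symbols. Hair keratins, keratin-associated proteins, and myosins are families of near-identical genes, among which the counting can split reads.

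**Figure D1:**
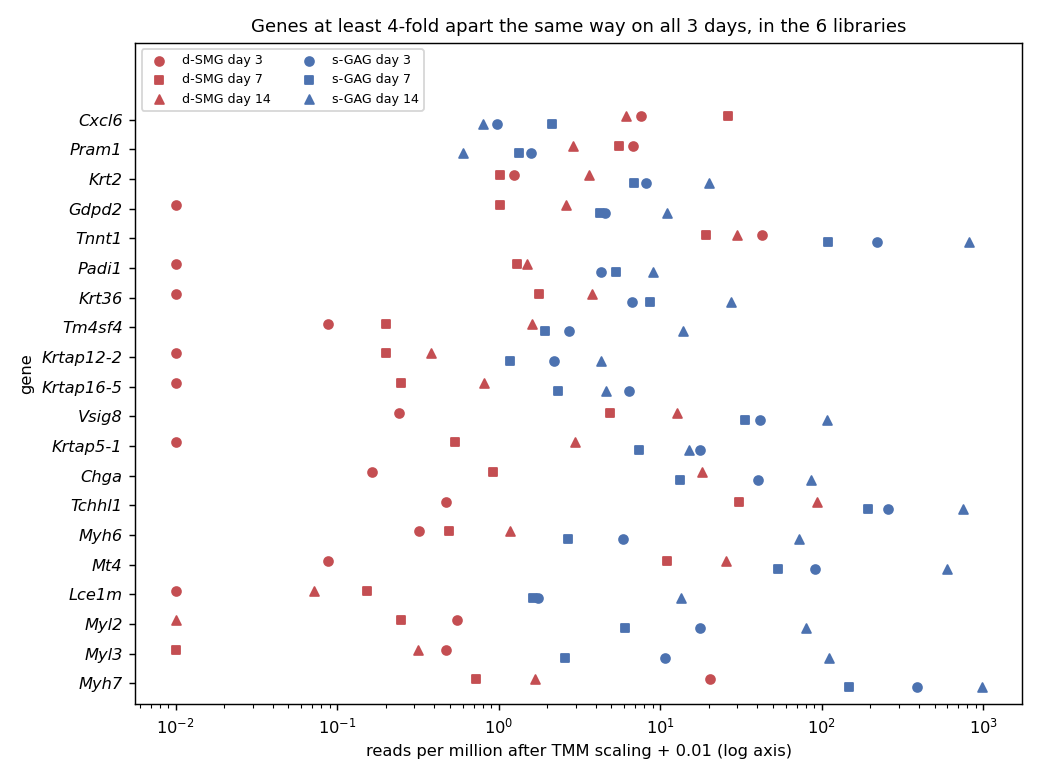
CPM after TMM scaling (x axis, log scale, 0.01 added) of the 20 named genes at least 4-fold apart in the same direction on day 3, 7, and 14, with 1 point for each of the 6 libraries (color, treatment; shape, day). Only Cxcl6 and Pram1 lie higher with d-SMG, and points at 0.01 are libraries with 0 reads.

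Among the 10 genes lower in d-SMG with the smallest p-values, *Lao1* and *Chac1* stood beside the hair, barrier, and muscle genes and *Tm4sf4*. *Lao1*, an L-amino acid oxidase, had 0, 1, and 3 reads with d-SMG and 15, 52, and 115 with s-GAG on day 3, 7, and 14, respectively, and a difference over the days of −5.20 ± 0.83 (SE). *Chac1*, an enzyme that breaks down glutathione and is induced by amino-acid shortage and stress of the endoplasmic reticulum, measured 1.701, 2.45, and 1.91 CPM with d-SMG and 7.97, 16.4, and 7.26 with s-GAG. Its difference over the days was −2.30 ± 0.47 (SE), again with adjusted p = 1 (edgeR).

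Skeletal muscle genes were higher in d-SMG on day 3 and lower on day 7 and 14. The dorsal skin of the rat carries a thin muscle, the panniculus carnosus, below the dermis. The 20 muscle genes took 19.7%, 0.792%, and 1.11% of the reads with d-SMG and 5.62%, 5.38%, and 11.2% with s-GAG on day 3, 7, and 14, respectively. Their median ratio was 2.07, −2.89, and −3.89, beside medians over all genes tested of −0.08, 0.01, and 0.05, and −3.16 on day 14 with the length correction. On day 3, 11 of the 20 were at least 4-fold higher in d-SMG and 2 at least 4-fold lower, whereas 18 were lower on day 7 and 16 on day 14, and none higher. Over all genes tested, 3.5% were at least 4-fold higher on day 3, and 2.4% and 3.32% lower on day 7 and 14. *Myh4*, *Tnnt3*, and *Actn3* encode the myosin heavy chain, troponin T, and alpha-actinin of fast fibers. *Myh4* stood at 99528, 2586, and 2283 CPM with d-SMG and 11080.2, 18199.9, and 41021 with s-GAG, with ratios of 3.17, −2.82, and −4.17. *Actn3* showed the same turn, with ratios of 2.49, −3.67, and −5.70. *Rrad* and *Ankrd2*, a GTPase and a stretch-responsive ankyrin protein of muscle, were among the 5 genes furthest above s-GAG on day 3, with ratios of 6.08 and 4.70.

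The genes of slow fibers did not follow this turn and were lower in d-SMG on every day. *Myh7*, the slow myosin heavy chain, measured 20.5, 0.72, and 1.66 CPM with d-SMG and 392, 147, and 985 with s-GAG. *Tnnt1*, the slow troponin T, measured 42.9, 19.2, and 29.96 CPM with d-SMG and 219.6, 109, and 813 with s-GAG. *Myl3* and *Myl2*, the slow myosin light chains, had 6, 0, and 5 and 7, 5, and 0 reads with d-SMG, and 190, 103, and 1698 and 314, 243, and 1215 reads with s-GAG. On day 14 *Myl2* was at least 429.8-fold lower in d-SMG, taking 3 reads as the limit for a library with 0. The differences over the days were −7.13 ± 1.29 (SE) for *Myh7*, −6.72 ± 1.06 (SE) for *Myl3*, and −3.17 ± 0.69 (SE) for *Tnnt1* (edgeR, adjusted p = 1 for each). The day-14 ratio of *Tnnt1* was −4.76, and −3.71 with the length correction. The division into slow and fast fibers was made after the values were seen.

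A ratio of 2 muscle genes within a library does not depend on its scaling. For 1000 reads of *Myh4* there were 0.206, 0.278, and 0.729 reads of *Myh7* with d-SMG and 35.4, 8.103, and 24.02 with s-GAG on day 3, 7, and 14, respectively. *Myl3* against the fast light chain *Myl1* gave 0.0806, 0, and 0.763 per 1000 with d-SMG and 8.27, 2.46, and 23.9 with s-GAG, also with no overlap. *Tnnt1* against *Tnnt3* overlapped, at 2.05, 22.9, and 23.9 and 38.6, 21.5, and 58.1 per 1000. In the control libraries *Myh7* stood at 3.27, 0.13, and 0.742 per 1000 reads of *Myh4* and in the Alg libraries at 0.897, 19.01, and 4.64. Hence the *Myh7* values with d-SMG lay within the range of the control, and those with s-GAG lay above every control library. The other pairs differed from this. In the control libraries *Tnnt1* stood at 25.98, 7.89, and 4.85 per 1000 reads of *Tnnt3*, so s-GAG on day 7 lay within their range. *Myl3* stood there at 1.27, 0.346, and 0.345 per 1000 reads of *Myl1*. It was above this range in every s-GAG library and below it with d-SMG on day 3 and 7.

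**Figure D2:**
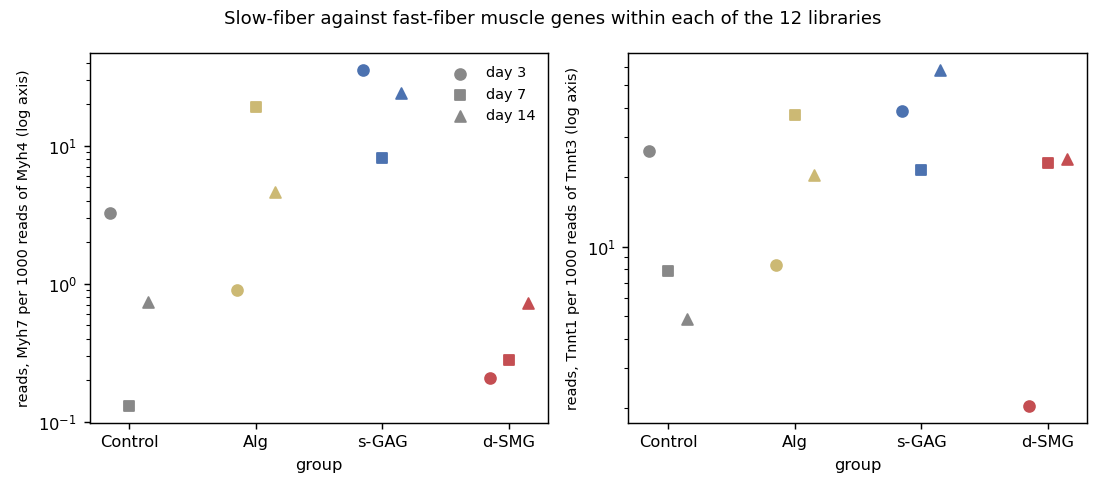
Reads of the slow-fiber genes Myh7 (left) and Tnnt1 (right) for 1000 reads of the fast-fiber genes Myh4 and Tnnt3 in the same library (y axes, log scale), for the 12 libraries by group (x axis) and day (shape). The Myh7 ratio of every s-GAG library exceeds that of every d-SMG library, whereas for Tnnt1 the groups overlap.

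Epidermis and hair follicles were nearly missing from the d-SMG library of day 3. All 22 hair follicle genes (hair and root sheath keratins and regulators of the follicle) were at least 4-fold lower in d-SMG on that day, with a median of −8.94. *Krt71*, a keratin of the inner root sheath, measured 1.78, 369, and 527 CPM with d-SMG and 1039.9, 795, and 1018 with s-GAG. *Krt28*, of the same sheath, had 0 reads with d-SMG on day 3 and 831 with s-GAG, at least 203-fold lower. *Krt32* and *Krt83*, hair-shaft keratins, also had 0 reads in that library and were at least 297-fold and 236-fold lower. By day 7 and 14 the medians of the list were −1.21 and −1.37, 1 and 10 of the 22 genes were at least 4-fold lower, and 17 of the 22 were lower on all 3 days. Over all genes tested, 8.33%, 2.4%, and 3.32% were at least 4-fold lower on day 3, 7, and 14, respectively. The follicle genes took 0.002%, 0.397%, and 0.526% of the reads with d-SMG and 1.21%, 0.877%, and 0.485% with s-GAG. With the length correction the medians were −1.31 and −1.57 on day 7 and 14.

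The keratinocyte layers followed the same course. *Krt14* and *Krt5*, the keratin pair of basal cells, were lower in d-SMG on day 3 by 8.10 and 8.45 on the log2 scale. *Krt5* measured 7.58, 2199, and 4267 CPM with d-SMG and 2650.1, 3881, and 4549 with s-GAG, so that the groups came close to each other by day 14. The 9 basal genes tested had medians of −5.20, −0.82, and 1.17, and the day-14 value was 0.26 with the length correction. *Dst*, a long cytoskeletal linker that muscle also expresses, was the 1 basal gene that was not lower on day 3, at 1318 against 1001 CPM. The 10 suprabasal genes, among them *Krt1* and *Krt10*, had medians of −7.13, −0.97, and −1.04, and 9 of the 10 were lower on all 3 days. The 12 genes of the cornified envelope and barrier had medians of −6.41, −1.03, and −0.55. *Ivl*, involucrin, a scaffold of the envelope, measured 0.0773, 9.499, and 41.5 CPM with d-SMG and 85.04, 60.4, and 165 with s-GAG and was lower in d-SMG each day. *Flg*, filaggrin, differed by −6.58, −1.27, and −2.92.

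Genes of the wound edge, which activated keratinocytes switch on, had a median of −7.50 on day 3. The list holds keratins such as *Krt17*, small proline-rich proteins, *S100a8*, *S100a9*, and *Serpinb2*. On day 3, 7 of 7 genes tested were at least 4-fold lower in d-SMG, beside 8.33% of all genes tested. Their medians were −0.28 and −0.75 on day 7 and 14, and the day-14 value turned to 0.68 with the length correction. *Krt17* measured 3.71, 758, and 2517 CPM with d-SMG and 1246, 2364, and 7435 with s-GAG. The 9 sebaceous gland genes had medians of −5.55, −0.51, and −0.50, with 8 at least 4-fold lower on day 3, and the day-14 value was 0.05 with the correction. *Awat2*, which makes the wax esters of sebum, had 0 reads in the d-SMG library of day 3 and 748 in the s-GAG library. These lists were the markers of the tissue labelled skin, and the d-SMG library of day 3 held few reads of nearly all of them. In that library their scarcity came with the highest share of muscle reads. The next highest muscle shares were 15.9% (Alg, day 7), 11.2% (s-GAG, day 14), and 9.29% (control, day 3). Basal keratinocyte genes took 1.48%, 2.52%, and 0.564% of the reads there, against 0.108% in the d-SMG library of day 3. The part of the sampled tissue in this was not tested.

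**Figure D3:**
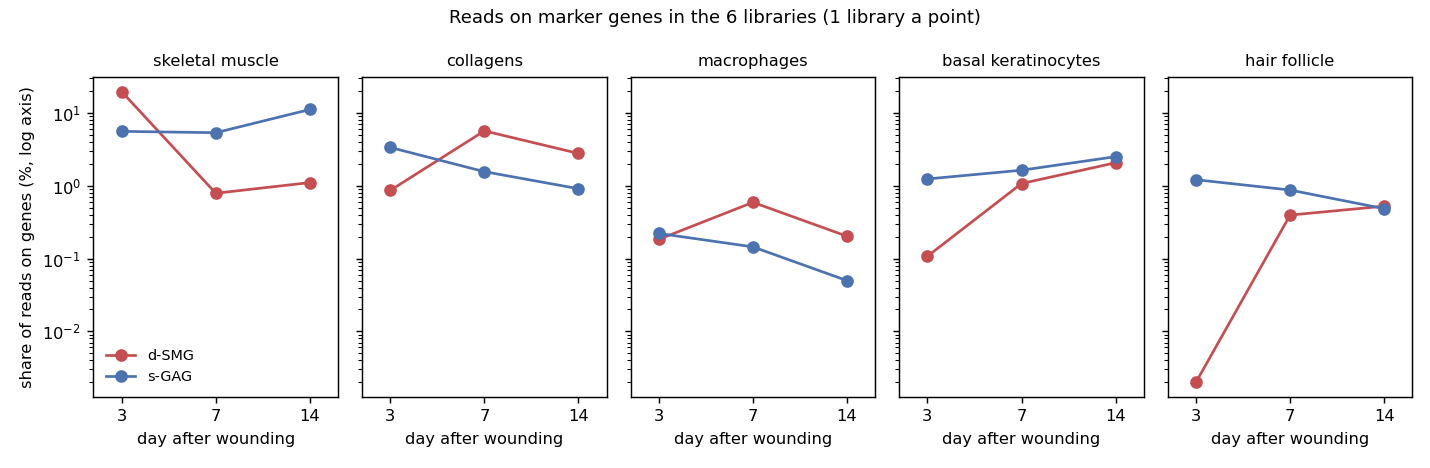
Share of all reads on genes (y axis, percent, log scale) taken by the marker genes of 5 tissues on day 3, 7, and 14 (x axis) with d-SMG and s-GAG, with 1 library at each point and lines joining different libraries of 1 treatment. Muscle reads with d-SMG run from 19.7% on day 3 to 0.792% on day 7, and hair follicle reads from 0.002% to 0.397%.

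Macrophage genes were higher in d-SMG on day 7 and 14 and near equal on day 3. The 15 genes had medians of 1.66 on day 7 and 1.43 on day 14 (1.92 with the length correction), all 15 were higher on both days, and 4 and 3 of them passed 4-fold. Over all genes tested, 2.01% and 5.69% passed 4-fold as higher on these days. On day 3 the median of the 15 was −0.02 and 7 of them were higher. *Cd163*, a receptor that clears hemoglobin, measured 389, 1012, and 158 CPM with d-SMG and 217, 271, and 25.6 with s-GAG. *Mrc1*, the mannose receptor, measured 194, 611, and 146 CPM with d-SMG and 142, 189, and 36.96 with s-GAG. *Cd68*, a lysosomal protein of macrophages, measured 31.5, 87.1, and 20.1 CPM with d-SMG and 50.8, 15.97, and 5.04 with s-GAG. *Lyz2*, lysozyme, differed by 0.34, 2.08, and 1.43, and *Lyc2*, a second lysozyme gene with a closely related sequence, was the gene furthest above s-GAG on day 7, at 5.81. The macrophage genes took 0.184%, 0.594%, and 0.203% of the reads with d-SMG and 0.222%, 0.145%, and 0.0498% with s-GAG.

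Genes assigned to M1 (inflammatory) and M2 (repair) macrophages both had medians above 0 on day 7 and 14, whereas on day 3 the M1 median lay below 0 and the M2 median above it. The 12 M1 genes had medians of −1.11, 0.49, and 1.55 and the 14 M2 genes of 0.24, 1.03, and 0.54, and with the length correction the day-14 values were 2.19 and 0.68. *Cd80*, a costimulatory protein of the M1 list, was higher in d-SMG on all days, by 1.33, 2.10, and 1.51. *Nos2*, inducible nitric oxide synthase, measured 1.08, 4.99, and 2.096 CPM with d-SMG and 2.83, 9.899, and 0.196 with s-GAG, lower in d-SMG on day 3 and 7 and higher on day 14. *Arg1*, arginase, an M2 gene, measured 12.8, 57.3, and 8.198 CPM with d-SMG and 8.76, 11.2, and 9.42 with s-GAG, with its widest difference on day 7. *Stab1*, a scavenger receptor of the M2 list, differed by 1.43, 2.16, and 0.60. *Il10*, an anti-inflammatory cytokine, differed by −1.09, 0.72, and 4.01 at levels of at most 1.42 CPM.

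The 14 T and NK cell genes had medians of −3.08, 1.98, and 1.0002, and 1.48 on day 14 with the length correction, under which 4 rather than 0 of the 14 passed 4-fold as higher on that day. Of all 14986 genes tested, 610 did so with the correction and 5.69% without it. On day 3, 9 of the 14 were at least 4-fold lower in d-SMG, beside 8.33% of all genes tested. All 14 were higher on day 7 and 14, beside 7632 and 7759 of the 14986 genes. *Cd3e*, a chain of the T cell receptor complex, measured 0.387, 4.89, and 6.47 CPM with d-SMG and 3.39, 1.89, and 2.03 with s-GAG. *Cd8a*, the coreceptor of cytotoxic T cells, was, with *Cd8b*, an exception on day 3 and was higher in d-SMG on all days, at 19.9, 13.9, and 4.99 CPM with d-SMG and 4.297, 0.721, and 2.03 with s-GAG. *Cd8b*, its partner chain, differed by 0.82 on day 3 and 3.19 on day 7, and was at least 8.17-fold higher on day 14, when the s-GAG library had 0 reads. The 7 neutrophil genes tested, of 14 listed, had medians of −2.07, 1.25, and −0.19. Their list shares *S100a8* and *S100a9* with the wound-edge genes of keratinocytes, so these medians are not separate from those of that list. *Csf3r*, the G-CSF receptor, measured 5.799, 19.1, and 4.38 CPM with d-SMG and 2.83, 1.54, and 1.31 with s-GAG and was higher in d-SMG on all days, as was the receptor *Trem1*. *Lcn2*, lipocalin-2, differed by 4.17, 1.27, and −0.61. The 7 mast cell genes had medians of −3.00, −0.17, and −0.41, with 5 at least 4-fold lower on day 3. The day-14 median of the mast cell genes turned to 0.38 with the length correction. The 5 included the proteases *Cpa3* (−5.51) and *Cma1* (−4.43). Neutrophil, T cell, and mast cell genes stood mostly under 20 CPM.

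Genes induced by interferon ran from lower in d-SMG on day 3 to higher on day 14. Interferons act through transcription factors that bind a DNA element in the promoters of antiviral genes. All 29 genes were lower in d-SMG on day 3, 20 of them at least 4-fold, with a median of −2.71. The medians were −0.61 on day 7 and 1.08 on day 14 (1.26 with the length correction), when 4 genes were at least 4-fold lower and 3 at least 4-fold higher, respectively. Over all genes tested, 8.33% were at least 4-fold lower on day 3, 2.4% lower on day 7, and 5.69% higher on day 14. *Mx1* and *Mx2*, GTPases that block viruses, were both 35.9-fold lower in d-SMG on day 3. *Mx2* measured 8.89, 44.8, and 90.1 CPM with d-SMG and 319, 186, and 50.5 with s-GAG, with d-SMG below s-GAG on day 3 and 7 and above it on day 14. *Irf7*, a transcription factor that amplifies the response, measured 2.63, 7.15, and 24.2 CPM with d-SMG and 83.9, 15.9, and 11.4 with s-GAG. *Isg15*, a ubiquitin-like protein, measured 3.94, 15.1, and 28.8 CPM with d-SMG and 90.1, 52.95, and 24.01 with s-GAG. *Rsad2*, viperin, had 2, 65, and 34 reads with d-SMG and 403, 922, and 5 with s-GAG, a log2 ratio on day 3, with no prior count, of −7.20 (95% interval −10.25 to −5.34). The interferon genes took 0.0259%, 0.0763%, and 0.0874% of the reads with d-SMG and 0.206%, 0.122%, and 0.035% with s-GAG.

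**Figure D4:**
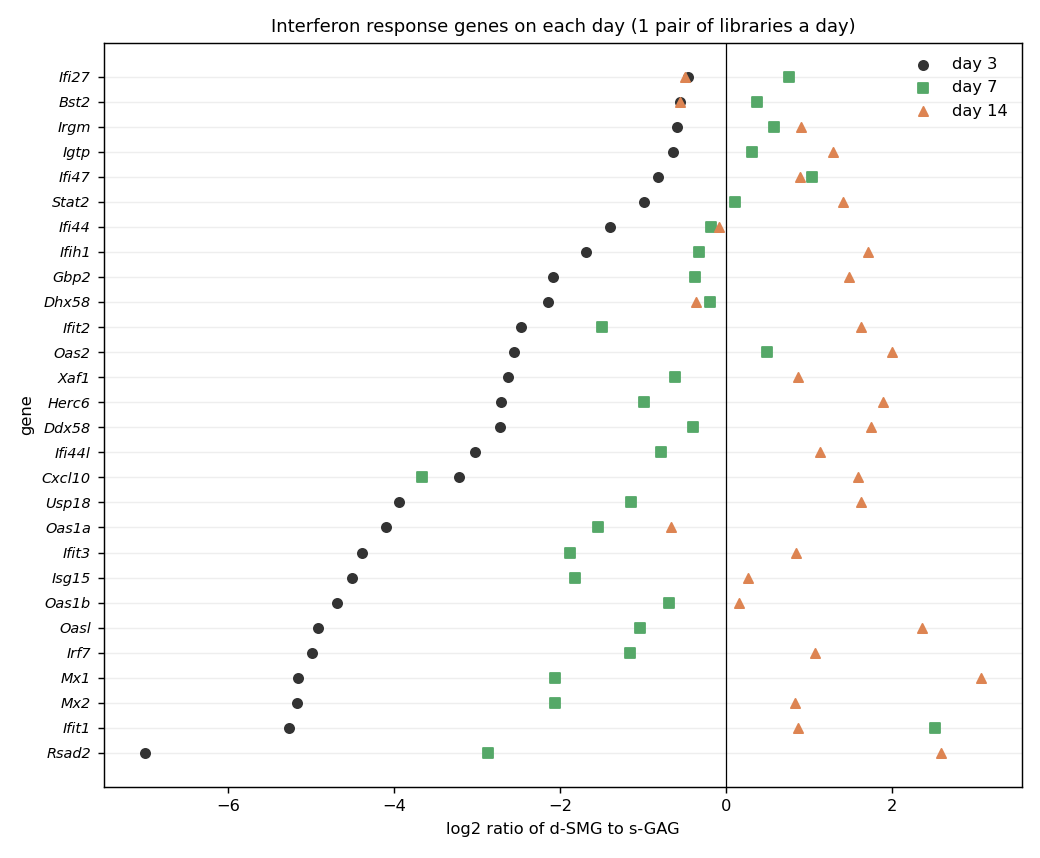
Log2 ratio of d-SMG to s-GAG (x axis) of 28 of the 29 interferon response genes (y axis) on day 3, 7, and 14, with 1 pair of libraries a day. All 28 points of day 3 lie left of 0, and 23 of the 28 points of day 14 lie right of it.

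Promoters of these genes were examined for the core of the interferon-stimulated response element, GAAANNGAA, on both strands, in the window from 250 bases before to 50 after the start of each gene (RefSeq, GRCr8). Of the 20 genes with a promoter in the table, 15 (75%) held the core, beside 9.71% of all 33469 promoters. As the list was made of genes known to respond to interferon, this share does not bear on the treatments. The 15 genes had a median ratio of −2.62 on day 3 and the 5 without the core −2.71. Among the promoters with the core, those whose genes lay furthest below s-GAG on day 3 are shown. The core is in capitals, and the sequences run 5′ to 3′ along the gene.

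*Rsad2* (chr6:48788071-48788370, minus strand): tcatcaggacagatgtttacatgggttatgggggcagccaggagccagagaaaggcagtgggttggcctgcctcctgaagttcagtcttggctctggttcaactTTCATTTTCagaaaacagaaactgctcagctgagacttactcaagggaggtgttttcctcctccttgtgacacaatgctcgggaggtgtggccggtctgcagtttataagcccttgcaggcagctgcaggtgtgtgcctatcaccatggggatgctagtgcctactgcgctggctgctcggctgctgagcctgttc
*Irf7* (chr1:205799974-205800273, minus strand): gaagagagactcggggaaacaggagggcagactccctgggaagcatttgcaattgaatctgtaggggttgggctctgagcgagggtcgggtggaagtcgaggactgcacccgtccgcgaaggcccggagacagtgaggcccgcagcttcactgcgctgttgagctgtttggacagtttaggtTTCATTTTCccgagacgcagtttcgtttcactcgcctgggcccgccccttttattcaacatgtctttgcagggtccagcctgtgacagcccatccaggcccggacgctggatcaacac
*Oas1b* (chr12:41395803-41396102, minus strand): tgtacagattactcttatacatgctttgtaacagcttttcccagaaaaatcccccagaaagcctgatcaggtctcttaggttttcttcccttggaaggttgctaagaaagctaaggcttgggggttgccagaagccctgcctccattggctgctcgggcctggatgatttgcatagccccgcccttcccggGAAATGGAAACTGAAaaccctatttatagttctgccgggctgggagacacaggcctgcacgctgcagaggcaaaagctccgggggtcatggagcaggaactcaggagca
*Ifit3* (chr1:241527076-241527375, plus strand): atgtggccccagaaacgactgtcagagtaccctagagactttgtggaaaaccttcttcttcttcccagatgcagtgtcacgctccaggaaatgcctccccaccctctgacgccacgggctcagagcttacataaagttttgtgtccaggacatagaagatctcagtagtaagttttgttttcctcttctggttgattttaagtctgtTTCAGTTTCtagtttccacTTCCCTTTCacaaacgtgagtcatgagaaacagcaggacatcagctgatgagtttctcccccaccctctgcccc

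In *Ifit3*, which encodes an antiviral RNA-binding family protein and differed by −4.38, −1.88, and 0.84, the 2 cores begin 43 and 24 bases before the start. *Oas1b*, a member of the oligoadenylate synthetase family that senses double-stranded RNA, holds 2 overlapping cores, 59 and 53 bases before it. *Irf7* has its core 68 bases and *Rsad2* 146 bases before the start. Neither *Mx1* nor *Oasl*, a relative of the oligoadenylate synthetases, held a match in this window, at ratios on day 3 of −5.16 and −4.91.

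Of the chemokines, heparin-binding proteins that recruit leukocytes, 26 were tested and had medians of −0.92, 0.37, and 0.89. The day-14 median was 2.03 with the length correction, under which 12 of the 26 passed 4-fold as higher in d-SMG, instead of 3. Of all 14986 genes tested, 610 passed in this direction with the correction and 5.69% without it. *Cxcl6* was the chemokine with the widest difference over the days (above). *Ccl2* and *Ccl7*, which attract monocytes, were higher in d-SMG on all days, by 1.07, 0.75, and 1.36 and 1.31, 1.61, and 0.92. *Cxcl10*, an interferon-induced attractant of T cells, measured 0.773, 1.199, and 1.23 CPM with d-SMG and 7.41, 15.4, and 0.393 with s-GAG, lower in d-SMG on day 3 and 7. *Pf4*, platelet factor 4, which binds heparin tightly, measured 26.1, 69.3, and 22.4 CPM with d-SMG and 26.1, 9.800, and 12.6 with s-GAG and differed mainly on day 7. Of the 23 interleukin and TNF family genes, the medians were −0.85, 0.72, and 0.37. *Il33*, an alarmin, differed by 0.05, 2.14, and 1.30. The epidermal cytokine *Il1f10* was lower in d-SMG, with ratios of −7.01, −1.30, and −3.76, at levels of at most 3.11 CPM.

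The 7 inflammation genes named by the study had medians of −0.85, 1.01, and 1.45, and the 13 repair genes of 0.45, 0.97, and 0.50. The repair list also holds M2 genes, *Arg1* and *Il10* among them, so it is not separate from the M2 list. As the study named these genes from these libraries or from quantitative PCR of its diabetic wounds, their direction is not independent evidence. *Il1b* measured 4.48, 15.6, and 24.3 CPM with d-SMG and 8.09, 8.71, and 6.28 with s-GAG, below s-GAG on day 3 and above it thereafter. *Tnf* stood at 0.387, 1.82, and 1.36 CPM with d-SMG and 1.75, 0.895, and 0.393 with s-GAG, and *Ccl5* at 0.464, 2.16, and 3.08 CPM with d-SMG and 2.54, 0.174, and 1.11 with s-GAG. These levels are low, and differences between them rest on few reads. Among repair genes, *Vegfa*, the main inducer of new vessels, measured 218, 87.7, and 108 CPM with d-SMG and 124, 118, and 42.2 with s-GAG, and *Pdgfa* differed by 1.90, 0.11, and −1.78. *Tgfb1* differed by −0.14, 1.09, and −0.12.

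Collagen genes were lower in d-SMG on day 3 and higher on day 7 and 14. The 19 genes had medians of −1.05, 1.72, and 1.37, and the day-14 value was 0.80 with the length correction. Of the 19, 17 were lower on day 3, and 18 were higher on day 7. *Col1a1* and *Col3a1*, the main fibrillar collagens of skin, measured 1523, 7595, and 6293 CPM with d-SMG and 6773, 2168, and 4449 with s-GAG, and 3022, 13300.4, and 6419 CPM with d-SMG and 8907, 3464, and 3158 with s-GAG. *Col12a1*, which decorates collagen fibrils, measured 123, 998, and 181 CPM with d-SMG and 253, 214, and 50.96 with s-GAG. *Col6a5*, a collagen VI chain, was among the 5 genes furthest above s-GAG on day 7, at 4.66, and lay below it on day 3, at −5.83. The collagens took 0.866%, 5.699%, and 2.79% of the reads with d-SMG and 3.38%, 1.57%, and 0.914% with s-GAG. *Col5a3*, a minor fibrillar chain, was higher in d-SMG on all days, by 0.79, 2.11, and 1.12.

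Other matrix genes went the same way. The 21 matrix proteins and crosslinkers had medians of −0.74, 1.14, and 0.96, with 19 and 20 of them higher in d-SMG on day 7 and 14. *Tnn*, tenascin-N, measured 34.6, 841, and 94.9 CPM with d-SMG and 187, 189, and 30.8 with s-GAG. *Fbn1* and *Lox*, fibrillin-1 and the lysyl oxidase that crosslinks collagen, differed by −0.04, 1.09, and 1.91 and −0.76, 0.78, and 2.45. *Plod2*, a lysyl hydroxylase, was higher on all days, by 1.51, 0.82, and 1.46. The 20 proteases and inhibitors had medians of −0.93, 0.67, and 1.17. *Adamts4*, an aggrecan-cleaving protease, was higher in d-SMG on all days, at 15.2, 9.16, and 8.81 CPM with d-SMG and 3.62, 4.35, and 2.55 with s-GAG. *Plaur*, the urokinase receptor, differed by 0.93, 1.65, and 1.23, while *Mmp9*, a gelatinase, differed by −4.47, 1.06, and −0.19. *Sfrp2*, a secreted Wnt modulator of fibroblasts, was among the 5 genes furthest above s-GAG on day 7, at 29.4, 199, and 22.6 CPM with d-SMG and 16.8, 10.4, and 3.47 with s-GAG.

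Because the treatments share a heparin-like chain, the genes that build, carry, or bind such chains were also examined. The 41 genes of proteoglycans and glycosaminoglycan enzymes had medians of −0.32, 0.47, and 0.24, beside −0.08, 0.01, and 0.05 over all genes tested. *Gpc3*, a heparan sulfate proteoglycan of the cell surface, was lower in d-SMG on all days, at 6.19, 12.5, and 17.7 CPM with d-SMG and 33.8, 27.2, and 61.4 with s-GAG. *Has3*, a hyaluronan synthase of epidermis, was lower as well, with ratios of −4.05, −1.19, and −1.87, as was *Sdc1*, the syndecan of keratinocytes, with −2.87, −1.27, and −0.38. *Sulf1*, which removes sulfate from heparan sulfate, was higher on all days, by 0.61, 0.90, and 2.34. The 22 heparin-binding growth factors and related proteins had medians of 0.31, −0.02, and −0.10. *Hgf*, hepatocyte growth factor, measured 5.95, 9.403, and 3.76 CPM with d-SMG and 4.35, 2.26, and 0.85 with s-GAG and was higher in d-SMG on all days. *Bmp4*, a bone morphogenetic protein, was lower on all days, with ratios of −1.45, −0.71, and −1.77.

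Most endothelial genes were higher in d-SMG on day 3 and 7, with medians over 17 genes of 0.71, 0.70, and 0.08 and 16 and 17 genes higher on day 3 and 7. On day 14, 9 of the 17 were higher, and with the length correction 7 were, with a median of −0.09. *Cdh5*, the cadherin of vessel junctions, measured 110.1, 210.2, and 41.7 CPM with d-SMG and 67.1, 86.9, and 16.7 with s-GAG, and *Tie1*, a receptor of vessel walls, differed by 1.47, 1.64, and 0.81. No endothelial gene passed 4-fold on any day. The 13 smooth muscle and pericyte genes had medians of −0.17, −0.60, and 0.05, the 13 adipocyte genes of −0.21, −0.28, and −0.78, and the 11 Schwann cell genes of 0.09, 0.66, and −0.02. *Adipoq*, adiponectin, measured 2.47, 28.2, and 17.8 CPM with d-SMG and 50.4, 60.1, and 30.7 with s-GAG. The 6 erythroid genes tested, mostly hemoglobin chains, had medians of −1.68, 3.61, and −1.27, and *Hbb* measured 14.7, 75.8, and 46.2 CPM with d-SMG and 55.4, 4.75, and 123 with s-GAG, which set the s-GAG library of day 7 apart as the lowest. The hemoglobin genes are near-identical copies.

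Metabolic genes separated the days as well. The 21 genes of cholesterol synthesis had medians of −1.56, −0.62, and 0.40, with 9 at least 4-fold lower in d-SMG on day 3, beside 8.33% of all genes tested. The 21 glycolysis and hypoxia genes had medians of 1.22, −0.13, and −0.73, and *Aldoa*, an aldolase abundant in muscle, differed by 2.41, −1.03, and −3.31. The 19 genes of the respiratory chain had medians of 0.77, −0.27, and −1.13, and the day-14 value was −0.11 with the length correction. All 19 were higher in d-SMG on day 3, beside the high share of muscle reads in that library. The 21 proliferation genes had medians of −0.79, 0.32, and −0.08, and *Mki67*, a marker of dividing cells, measured 197, 270.3, and 320.1 CPM with d-SMG and 342, 289, and 319.7 with s-GAG. The 16 coagulation and complement genes had medians of −0.85, 0.80, and 0.50. The 18 immediate early genes had medians of 0.000914, −0.28, and 0.58, and *Fosb* differed by −0.26, 1.05, and 4.01. The 15 housekeeping genes had medians of −0.12, 0.11, and −0.43, among which *Gapdh*, a glycolytic enzyme, differed by 2.51, −0.30, and −1.93. With the length correction, other day-14 medians moved to 0.68 (neutrophils), −0.25 (adipocytes), −0.08 (erythroid cells), 0.10 (proliferation), −0.000958 (housekeeping), and 2.29 (inflammation genes named by the study).

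**Figure D5:**
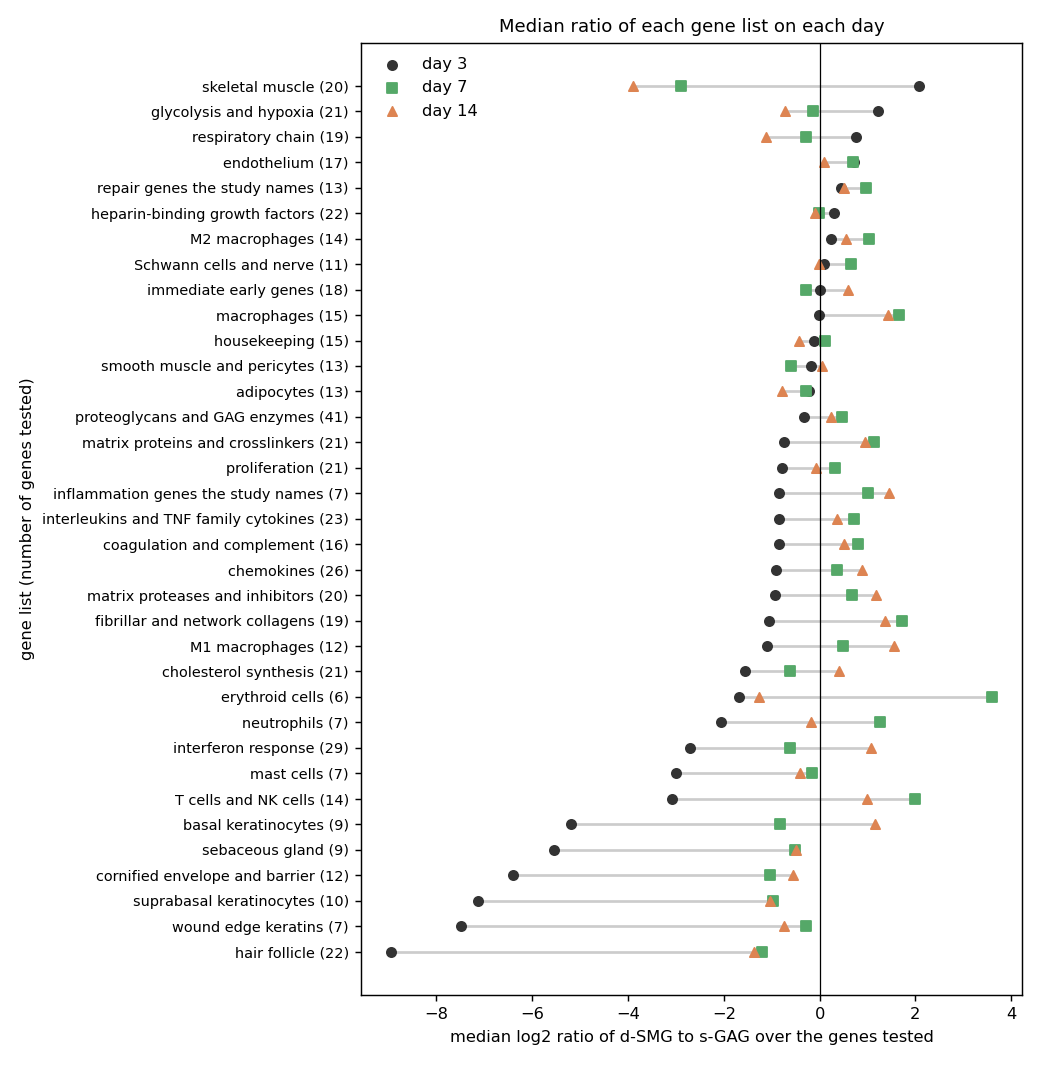
Median log2 ratio of d-SMG to s-GAG (x axis) of each gene list (y axis, with the number of genes tested) on day 3, 7, and 14. Hair follicle and keratinocyte lists lie furthest below 0 on day 3, skeletal muscle changes side between day 3 and day 7, and macrophage lists lie above 0 on day 7 and 14.

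Other genes stood furthest apart on single days. On day 3, *Prg4*, lubricin, a lubricating proteoglycan of joints, measured 546, 34.4, and 10.4 CPM with d-SMG and 20.4, 50.7, and 10.3 with s-GAG, and *Pcare* and *Ppp1r27* were also among the 5 furthest above s-GAG, at 5.81 and 4.66. *Cpa4*, a carboxypeptidase, *Ckmt1*, a mitochondrial creatine kinase, and *Krt72*, a root sheath keratin, had 0 reads in the d-SMG library of that day and were at least 233-fold, 231-fold, and 218-fold lower, respectively. On day 7, *Alox15*, a lipoxygenase, was above s-GAG by 4.17, while *Smtnl1* and *Abra*, both muscle proteins, were below it by 7.44 and 5.52 and *Muc1*, an epithelial mucin, had 1 read against 151.

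On day 14, *Plekhd1*, *Trim30*, *Pmaip1*, *Gnl3l*, and *Sytl4* were furthest above s-GAG. *Gnl3l*, a nucleolar GTPase, measured 90.8, 55.8, and 47.9 CPM with d-SMG and 76.4, 107, and 1.05 with s-GAG, and all 5 had at most 16 reads in the s-GAG library of that day and 20 or more in the s-GAG libraries of day 3 and 7. These differences rested largely on the s-GAG library of day 14. For *Plekhd1* the d-SMG library of that day contributed as well, at 1.01, 3.36, and 8.81 CPM with d-SMG and 1.13, 5.72, and 0.0654 with s-GAG. With the length correction the ratios were 6.51 (*Plekhd1*), 5.47 (*Trim30*), 7.08 (*Pmaip1*), 5.98 (*Gnl3l*), and 4.65 (*Sytl4*), beside 6.62, 6.14, 5.51, 5.48, and 4.93 without it. *Dct*, a melanin-forming enzyme of pigment cells, was among the 5 furthest below s-GAG, at 0, 0.912, and 1.48 CPM with d-SMG and 2.15, 2.74, and 144 with s-GAG.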

How the data were processed

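Each library was built by the authors from TRIzol total RNA after depletion of ribosomal RNA, with a stranded kit, and sequenced as paired reads. The submitters' processing notes name bcl2fastq, FastQC, TopHat2, and edgeR. Neither tool versions and the build nor how reads were counted and genes kept is given in the sources used here. The count values were deposited as raw reads per gene, and the FPKM values were deposited as the authors scaled them, for gene length and for the fragments of the library. Among the columns of each table, 1 matched no label and was not used.

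Genes were filtered with filterByExpr (minimum count 10), and counts were scaled by TMM and fitted with day and treatment in edgeR 4.0.16 (R 4.3.3) by the quasi-likelihood test, with Benjamini-Hochberg adjustment at 0.05 over all genes tested and 2 residual degrees of freedom. The labels give the day, which pairs the libraries, and the correlations of same-day deviations from the treatment means were -0.03, 0.13, and 0.20 on day 3, 7, and 14, respectively. Between different days they ran from -0.25 to 0.28, so libraries of the same day were not clearly more alike. p-values measure only the spread between the same-day pairs. Ratios within a day used a prior count of 0.5, and a library with 0 reads was set to 3 reads for bounds. Intervals (95%, exact Clopper-Pearson) cover counting error only. Alternatives used DESeq2 1.42.0, limma 3.58.1, other scalings, filters, folds, and days left out. The correction for gene length, fitted on lengths implied by counts and FPKM, was chosen after seeing the data. The paired fit was tested on simulated data of 14986 genes and, at a biological coefficient of variation of 0.5, recovered 22 of 100 genes changed 4-fold and 97 of 100 changed 16-fold. It also called 3 unchanged genes. The simulation gave every gene the same variation and no change between days. In the data the common coefficient was 0.539 and many ratios changed with the day. The simulated shares therefore cannot tell how many shared differences the fit missed here.

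The comparison and gene lists were chosen with earlier results of these data known. The genes named were the 10 of smallest p in each direction, the 5 furthest apart in each direction on each day with at least 100 reads, the genes past 4-fold on all days, up to 4 members of each list with the largest mean difference (up to 3 more where the days were opposed), and the genes the study names. Other list members were named after their values were seen. A few genes that this rule selects are not reported here.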

Additional observations from a re-analysis of the deposited data

Results flagged for a closer look

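In 8 gene lists the median log2 ratio of d-SMG to s-GAG lay more than 1 above 0 on one day and more than 1 below 0 on another. The difference between days was not tested, since each day holds 1 pair of libraries. Basal keratinocyte genes stood at -5.20 on day 3 and 1.17 on day 14. Interferon response genes stood at -2.71 on day 3 and 1.08 on day 14, and M1 macrophage genes at -1.11 and 1.55 on the same days. T and NK cell genes had medians of -3.08 on day 3 and 1.98 on day 7. Neutrophil genes, whose list shares *S100a8* and *S100a9* with the wound-edge genes, had medians of -2.07 and 1.25 on those days. Collagen genes had medians of -1.05 and 1.72 on the same days, and erythroid genes of -1.68 and 3.61. Skeletal muscle genes ran the other way, from 2.07 on day 3 to -3.89 on day 14. The day-14 medians also involved the s-GAG library of that day, in which short genes stood above long genes. With the length correction they were 0.26 (basal keratinocytes), 1.26 (interferon response), 2.19 (M1 macrophages), and -3.16 (skeletal muscle). The basal keratinocyte median then no longer lay more than 1 above 0. All 8 involved the d-SMG library of day 3, which held the fewest keratinocyte reads and the most muscle reads of the 12 libraries, and the part of that library in these medians was not tested.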

How the results depend on the processing

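Over the 3 days, no gene passed an adjusted p of 0.05 in edgeR or limma with RLE or library-size scaling, other filters, all 12 libraries, FPKM, or the length correction. Without the replicate block for day the counts were also 0 higher and 0 lower (148 and 141 at unadjusted p under 0.05). DESeq2 called 9 genes higher and 68 lower, among them 16 of the 20 genes named for the smallest p. Leaving out one day in turn gave 0 to 90 genes higher and 0 to 179 lower, the upper values without day 3, when 15 of the 20 were called. The number past 4-fold on all days left ranged from 9 to 53 higher and 76 to 131 lower, with fewer days to pass. On all 3 days there was 1 gene higher with RLE size factors, 1 higher and 15 lower with library size alone, 0 higher with at least 100 reads, and 32 higher and 171 lower at 2-fold. With library size alone, day 3 had 272 genes higher, and day 14 had 1841 higher and 239 lower. With FPKM + 0.1, there were 234 higher on day 3, 212 lower on day 7, and 1347 higher and 212 lower on day 14. With FPKM + 1, there were 134 higher and 623 lower for day 3, 98 and 118 for day 7, and 433 and 123 for day 14. At 8-fold these were 108 and 823, 40 and 111, and 183 and 172. The median of basal keratinocyte genes over the days ranged from -3.04 without day 14 to 0.29 without day 3, where its direction reversed. The cause of these shifts was not tested. Genes with few reads limit precision: the smallest library held 13748887 reads.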

Other observations

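The following genes were chosen after their values were seen. Pigment-cell genes were lower in d-SMG on day 14. *Dct*, which converts dopachrome in melanin synthesis, had 0 reads with d-SMG on day 3, at least 9.26-fold lower. Its log2 ratios were -1.56 and -6.59 on day 7 and 14. *Pmel*, the fibril protein of melanosomes, had ratios of -0.95, -0.17, and -5.43 on day 3, 7, and 14, respectively. Those of *Mlana*, another melanosome protein, were -6.14, 0.27, and -1.97. The 2207 *Dct* reads in the s-GAG library of day 14 stood against 24 with d-SMG, while *Mlana* lay slightly above s-GAG on day 7.

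The metallothioneins *Mt1* and *Mt2A*, which bind zinc and copper, were higher in d-SMG on day 3 and lower on day 7 and 14, whereas *Mt4*, of the same family, was lower on all 3 days. *Mt1* had ratios of 1.81, -1.53, and -1.39, and *Mt2A* of 2.23, -1.78, and -1.57. *Mmp12*, the elastase of macrophages, had ratios of -4.79, 3.02, and 0.99, and *Trem2*, a lipid receptor of macrophages, of -0.23, 2.79, and 0.28. Each value compares 1 library with another and has no replicate check.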
